A study of Mus musculus with 12 samples.

Results

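The homeostatic chemokines and receptors of the splenic white pulp were followed as 10 genes, 4 of them ligands (Cxcl12, Cxcl13, Ccl19 and Ccl21a) and 6 receptors (Cxcr4, Cxcr5, Ccr6, Ccr7, S1pr1 and Gpr183). They were chosen by name, and each was read from the probe set that carries its symbol and has the highest mean over the arrays, 10 of 19939 genes in all. Spleen RNA of C57BL/6 mice was measured on 12 Affymetrix arrays, with labels that give 3 groups and 4 biological replicates in each. The TLR-deficient septic mice carry titles that name Trif crossed with MyD88, the adaptors of Toll-like receptors (TLRs), and had colon ascendens stent peritonitis (CASP), in which a stent lets gut content leak into the abdomen. The septic wildtype mice had the same operation, and the untreated wildtype mice had none. The labels state neither the alleles, the sex and age of the mice nor the time from operation to sampling, and they hold no untreated TLR-deficient group. The titles number the arrays M5 to M8 (septic TLR-deficient), M9 to M12 (septic wildtype) and M13 to M16 (untreated), each in the order of replicates 1 to 4.

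White pulp is the lymphoid tissue of the spleen, and its B cell follicles and T cell zone are kept apart by chemokines that stromal cells make without any inflammation. Cxcl13 draws cells with Cxcr5 into follicles, Ccl19 and Ccl21 draw cells with Ccr7 into the T cell zone, and Cxcl12 acts on Cxcr4 in red pulp and around plasma cells. Gpr183 follows oxysterols to the outer follicle, Ccr6 answers to Ccl20, and S1pr1 follows sphingosine 1-phosphate towards the blood. In whole spleen, fewer cells of a type and less RNA per cell cannot be told apart.

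Of the members, 8 have 1 probe set each on these arrays. Ccl19 has 5, which gave 4 different profiles that stayed within 0.24 of each other on the log2 scale, and the brightest was used. The Ccl21 signal belongs to no single gene, because its 4 probe sets hold identical values and each names 7 symbols: Ccl21a, Ccl21b, Ccl21c, Ccl21d, Gm1987, Gm10591 and Gm13304. RefSeq start windows show how alike some of these copies are. They are the 250 bases before the annotated start in GRCm38.p6, for Ccl21a at chr4:42773992-42774241 (minus strand), Ccl21d at chr4:41903363-41903612 (plus strand) and Gm13304 at chr4:42114537-42114786 (plus strand), printed 5′ to 3′ with capitals at bases unlike Ccl21a.
Ccl21a: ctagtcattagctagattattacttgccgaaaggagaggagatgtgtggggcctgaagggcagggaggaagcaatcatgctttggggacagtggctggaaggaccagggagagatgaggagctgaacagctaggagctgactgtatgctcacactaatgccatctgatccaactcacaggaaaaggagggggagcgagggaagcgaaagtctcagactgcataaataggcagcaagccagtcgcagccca
Ccl21d: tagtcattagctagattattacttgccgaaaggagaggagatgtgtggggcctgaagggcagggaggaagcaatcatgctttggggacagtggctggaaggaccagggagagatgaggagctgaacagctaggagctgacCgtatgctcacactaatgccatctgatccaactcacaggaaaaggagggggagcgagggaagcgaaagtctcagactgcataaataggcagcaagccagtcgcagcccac
Gm13304: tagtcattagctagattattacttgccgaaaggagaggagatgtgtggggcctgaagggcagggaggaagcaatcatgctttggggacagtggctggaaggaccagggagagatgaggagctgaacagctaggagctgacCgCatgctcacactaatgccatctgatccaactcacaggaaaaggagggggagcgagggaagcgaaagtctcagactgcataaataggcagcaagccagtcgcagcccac
Over 249 aligned bases, Ccl21d differed from Ccl21a at 1 base (99.6% identity) and Gm13304 at 2 (99.2%), and Gm10591 had the same window as Gm13304. The window at the annotated start of Ccl21b was 34.7% alike.

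The windows of Cxcl13 and Ccl19 are shown because both encode zone-defining ligands and M16 had the highest Cxcl13 and, M10 aside, the lowest Ccl19. They lie at chr5:95956689-95956938 (plus strand) and chr4:42756366-42756615 (minus strand) of GRCm38.p6. Capitals mark every match to TATAAA, a core promoter pattern, on either strand.
Cxcl13: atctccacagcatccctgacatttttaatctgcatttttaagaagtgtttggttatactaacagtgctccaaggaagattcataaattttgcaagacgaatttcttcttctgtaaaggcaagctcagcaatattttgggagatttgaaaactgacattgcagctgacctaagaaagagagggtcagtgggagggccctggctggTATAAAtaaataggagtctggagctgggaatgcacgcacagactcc
Ccl19: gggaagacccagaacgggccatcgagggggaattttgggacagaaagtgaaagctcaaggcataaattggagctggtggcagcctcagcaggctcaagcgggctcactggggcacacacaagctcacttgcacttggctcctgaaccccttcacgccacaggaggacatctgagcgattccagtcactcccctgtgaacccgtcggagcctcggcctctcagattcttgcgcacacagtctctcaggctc
TATAAA stands once in the Cxcl13 window, from base 205, and the letters are not in the Ccl19 window. Of 32851 RefSeq windows of this length 12.4% hold them, and a match is a description only. RefSeq windows were at hand for 7 of the 10 members.

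The values are log2 expression values, the arrays' medians lay between 5.22 and 5.54, and levels of different probe sets are not set against each other. Septic wildtype replicate 2 (M10) stood apart, with Pearson's r of 0.739 to 0.783 against the other arrays over 35557 probe sets, where the other 11 had 0.943 to 0.988 among themselves. Its values were also less spread, with an SD over probe sets of 1.52 against 2.11 to 2.24 on the other 11. Arrays resembled their neighbours in title number more than their label: the closest array shared the label for 4 of the 12, and the title block (M5 to M7 with M16, M8 to M11, or M12 to M15) for 9. Myd88 stood at 9.64, 9.42, 9.44 and 8.62 on the septic TLR-deficient arrays, 8.70, 6.48, 8.78 and 9.20 on the septic wildtype arrays, and 8.87, 9.14, 9.32 and 9.75 on the untreated arrays, and Ticam1, which encodes Trif, at 5.80 to 5.93, 5.64 to 6.22 and 5.76 to 6.57. Myd88 was not lowest on the TLR-deficient arrays. Ticam1 had its lowest mean there (5.88 on septic TLR-deficient, 6.01 on septic wildtype and 6.25 on untreated arrays) with ranges that overlapped both other groups, though not the septic wildtype arrays without M10 (6.04 to 6.22). The probe sets may lie outside the deleted parts, so these values do not check the labels. Xist, an RNA of female cells, was at 3.73 to 4.33 on M12 to M15 and 8.94 to 10.94 on the other arrays. Eif2s3y, a Y-linked gene, was at 7.21 to 7.95 on M12 to M15 and at 2.48 to 4.50 on the others. This split cuts across the septic wildtype and the untreated label. M8, M12 and M16 each stood in a title block with arrays of another label, and whether their labels are right could not be settled. A difference between groups below is one between arrays as labelled, and differences of members and medians of gene lists are given with and without M10.

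M10 held the lowest of the 12 values for 10 of 10 members. It did so for 35.3% of all genes, and for 78.0% of the 7142 genes at least as bright as the dimmest member. The gap to the next lowest array ran from 0.22 for Ccr6 to 1.65 for Ccl19. Over the other 11 arrays, the span between the lowest and the highest value was 0.68 for S1pr1, the steadiest member, and 2.37 for Cxcr5 and 2.20 for Ccr7, the widest. The median span was 1.33 over the members, against 0.95 over genes at least as bright as the dimmest of them and 0.75 over all genes.

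**Figure D1:**
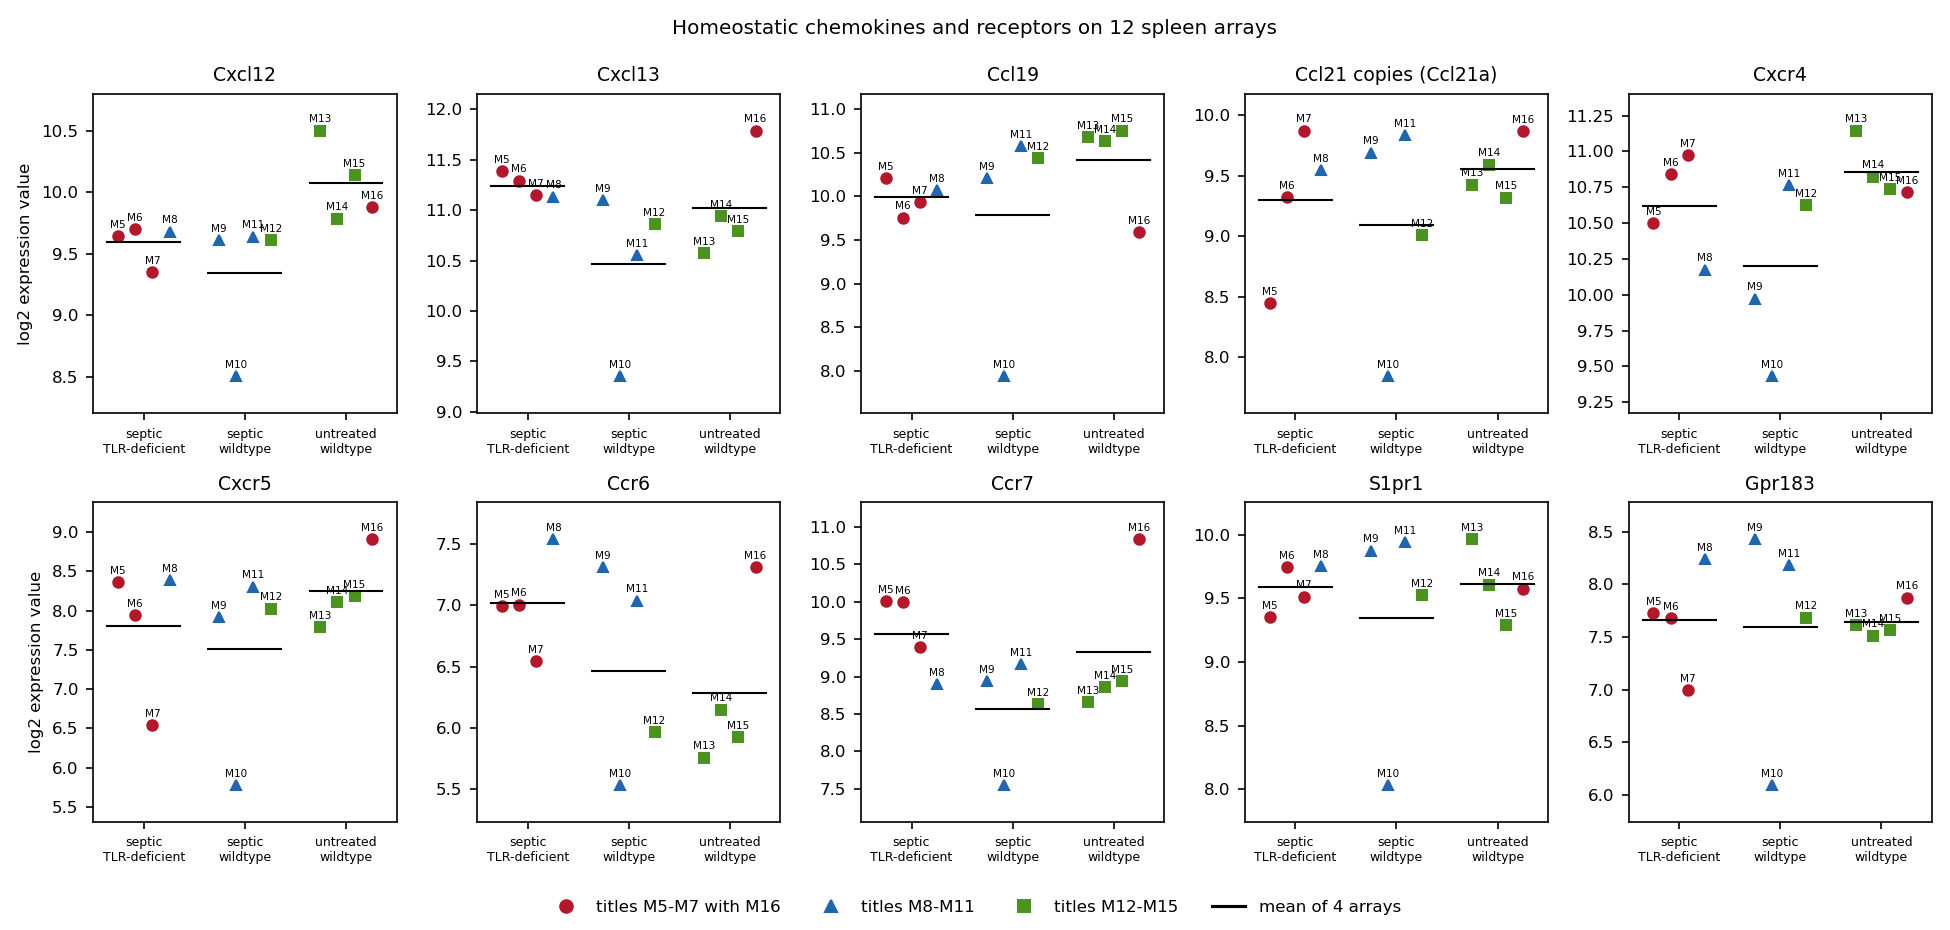
Log2 expression value (vertical axes, each with its own range) of the 10 genes on 12 arrays in the 3 labelled groups, with symbols for title blocks and a line at the mean of 4 arrays. M10 is the lowest point in 10 of 10 panels, M16 has the highest value of Cxcl13 (11.79), Cxcr5 (8.91) and Ccr7 (10.83), and S1pr1 keeps the other 11 arrays within 0.68.

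Among the ligands, Cxcl12, the stromal chemokine that holds plasma cells and precursors in their niches, had log2 values of 9.64, 9.70, 9.35 and 9.68 on the septic TLR-deficient arrays. The septic wildtype arrays had 9.61, 8.51, 9.64 and 9.61, and the untreated arrays 10.50, 9.79, 10.14 and 9.88. All 8 septic arrays lay below all 4 untreated ones, and it was the only member whose septic values did so under both genotype labels. The mean was 9.34 ± 0.56 on the septic wildtype and 10.08 ± 0.32 on the untreated arrays (SD, n = 4 each), which gave -0.73 (SE 0.26, 95% interval -1.30 to -0.17, adjusted p = 0.439 in limma). It was -0.46 without M10. For septic TLR-deficient arrays, at 9.60 ± 0.16 (SD, n = 4), the difference from untreated arrays was -0.48 (SE 0.26, adjusted p = 1 in limma), and neither passed the threshold.

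Cxcl13, the follicular chemokine made by follicular stroma, stood at 11.39, 11.29, 11.15 and 11.13 on the septic TLR-deficient arrays, 11.09, 9.35, 10.55 and 10.86 on the septic wildtype arrays, and 10.57, 10.94, 10.79 and 11.79 on the untreated arrays. The septic groups did not overlap, with M8 just above M9, and the highest value of all belonged to the untreated array M16. Means were 11.24 ± 0.12 on the septic TLR-deficient and 10.46 ± 0.77 on the septic wildtype arrays (SD, n = 4 each), a difference of 0.78 (SE 0.35, 95% interval 0.02 to 1.53, unadjusted p = 0.0446, adjusted p = 0.590 in limma). Without M10 it was 0.41. Septic wildtype minus untreated gave -0.56 (SE 0.35; -0.19 without M10), and septic TLR-deficient minus untreated 0.22 (SE 0.35; 0.47 without M16).

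Ccl19, the T cell zone chemokine that Ccr7 shares with Ccl21, stood at 10.21, 9.76, 9.94 and 10.07 on the septic TLR-deficient arrays, 10.21, 7.94, 10.58 and 10.44 on the septic wildtype arrays, and 10.68, 10.63, 10.75 and 9.59 on the untreated arrays. M16 held its lowest value outside M10, the reverse of its place for Cxcl13. Septic TLR-deficient minus septic wildtype gave a mean difference of 0.20 (SE 0.49), but -0.42 without M10 and -0.15 after a further quantile normalization. Septic wildtype minus untreated was -0.62 (SE 0.49) and -0.0049 without M10, and septic TLR-deficient minus untreated was -0.42 (SE 0.49; -0.70 without M16).

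The Ccl21 copies, which guide Ccr7-bearing cells along the stroma of the T cell zone, stood at 8.45, 9.32, 9.87 and 9.54 on the septic TLR-deficient arrays, 9.69, 7.84, 9.84 and 9.01 on the septic wildtype arrays, and 9.43, 9.59, 9.32 and 9.87 on the untreated arrays. The highest values were 9.87 on septic TLR-deficient, 9.84 on septic wildtype and 9.87 on untreated arrays, and each septic group held 1 array far below the untreated ones, M5 and M10. Differences were 0.20 between the septic groups (SE 0.40; -0.21 without M10 and -0.14 after quantile normalization), -0.46 for septic wildtype minus untreated (SE 0.40; -0.04 without M10) and -0.25 for septic TLR-deficient minus untreated (SE 0.40; 0.028 without M5).

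Among the receptors, Cxcr4, the receptor of Cxcl12, stood at 10.50, 10.84, 10.97 and 10.18 on the septic TLR-deficient arrays, 9.97, 9.43, 10.76 and 10.62 on the septic wildtype arrays, and 11.14, 10.82, 10.74 and 10.72 on the untreated arrays. The untreated arrays were close together, while M8, M9 and M10 were the 3 lowest. Septic wildtype arrays averaged 10.20 ± 0.62 and untreated arrays 10.85 ± 0.20 (SD, n = 4 each), a difference of -0.66 (SE 0.29, unadjusted p = 0.0387, adjusted p = 0.439 in limma; -0.40 without M10). The septic groups differed by 0.42 (SE 0.29; 0.17 without M10).

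Cxcr5, the follicular homing receptor of B cells and T helper cells, stood at 8.36, 7.94, 6.54 and 8.39 on the septic TLR-deficient arrays, 7.91, 5.78, 8.31 and 8.02 on the septic wildtype arrays, and 7.78, 8.11, 8.19 and 8.91 on the untreated arrays. M7 and M10 were the low ones, and the remaining 10 arrays held 7.78 to 8.91 in all 3 groups. Septic TLR-deficient minus septic wildtype was 0.30 (SE 0.54) and turned to -0.27 without M10, and septic wildtype minus untreated was -0.74 (SE 0.54; -0.17 without M10).

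Ccr6, a receptor of B cells and some T helper cells, stood at 6.99, 7.01, 6.54 and 7.54 on the septic TLR-deficient arrays, 7.32, 5.53, 7.04 and 5.96 on the septic wildtype arrays, and 5.76, 6.15, 5.92 and 7.31 on the untreated arrays. Outside M10, the 4 arrays M12 to M15 had the 4 lowest values, 5.76 to 6.15, and the other 7 had 6.54 to 7.54. The septic TLR-deficient mean was 7.02 ± 0.41 and the untreated mean 6.28 ± 0.70 (SD, n = 4 each), a difference of 0.74 (SE 0.42, 95% interval -0.18 to 1.65, adjusted p = 1 in limma; 1.08 without M16). Xist was low on the same 4 arrays, and with the mean level of 3 Y-linked genes in the model, a choice made with the values known, the difference was -0.18. Within a label, mainly M12 and M16 differ in these genes, and whether their labels are right could not be settled. The value of -0.18 rests on them, and the part of sex in the Ccr6 values was not tested.

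Ccr7, the receptor that takes T cells and dendritic cells into the T cell zone, stood at 10.01, 9.99, 9.39 and 8.90 on the septic TLR-deficient arrays, 8.94, 7.55, 9.17 and 8.63 on the septic wildtype arrays, and 8.66, 8.86, 8.94 and 10.83 on the untreated arrays. M16, M5, M6 and M7 held the 4 highest values, and M8 lay with the rest. The septic TLR-deficient mean was 9.57 ± 0.53 and the septic wildtype mean 8.57 ± 0.71 (SD, n = 4 each). This difference of 1.0004 (SE 0.48, 95% interval -0.03 to 2.03, adjusted p = 0.590 in limma; 0.66 without M10) was the largest of any member between the septic groups. Septic wildtype minus untreated was -0.75 (SE 0.48) and -0.25 without M16, and septic TLR-deficient minus untreated was 0.25 (SE 0.48) and 0.75 without M16.

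S1pr1, the exit receptor of lymphocytes, stood at 9.35, 9.75, 9.52 and 9.75 on the septic TLR-deficient arrays, 9.88, 8.03, 9.94 and 9.52 on the septic wildtype arrays, and 9.97, 9.61, 9.29 and 9.58 on the untreated arrays. Apart from M10 the groups overlapped throughout. Septic TLR-deficient minus untreated was -0.02 (SE 0.35, 95% interval -0.78 to 0.74), which turned to 0.079 after quantile normalization and 0.0098 with arrays centred on their medians. The septic groups differed by 0.25 (SE 0.35; -0.19 without M10).

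Gpr183, the oxysterol receptor that places B cells and dendritic cells, stood at 7.73, 7.68, 6.997 and 8.24 on the septic TLR-deficient arrays, 8.43, 6.09, 8.18 and 7.69 on the septic wildtype arrays, and 7.61, 7.51, 7.57 and 7.87 on the untreated arrays. M8, M9 and M11 held the 3 highest values, 8.18 to 8.43, under both septic labels. For the group means, septic TLR-deficient minus septic wildtype was 0.06 (SE 0.42) but -0.44 without M10 and -0.12 after quantile normalization, and septic wildtype minus untreated was -0.04 (SE 0.42) but 0.46 without M10 and 0.22 after quantile normalization.

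**Figure D2:**
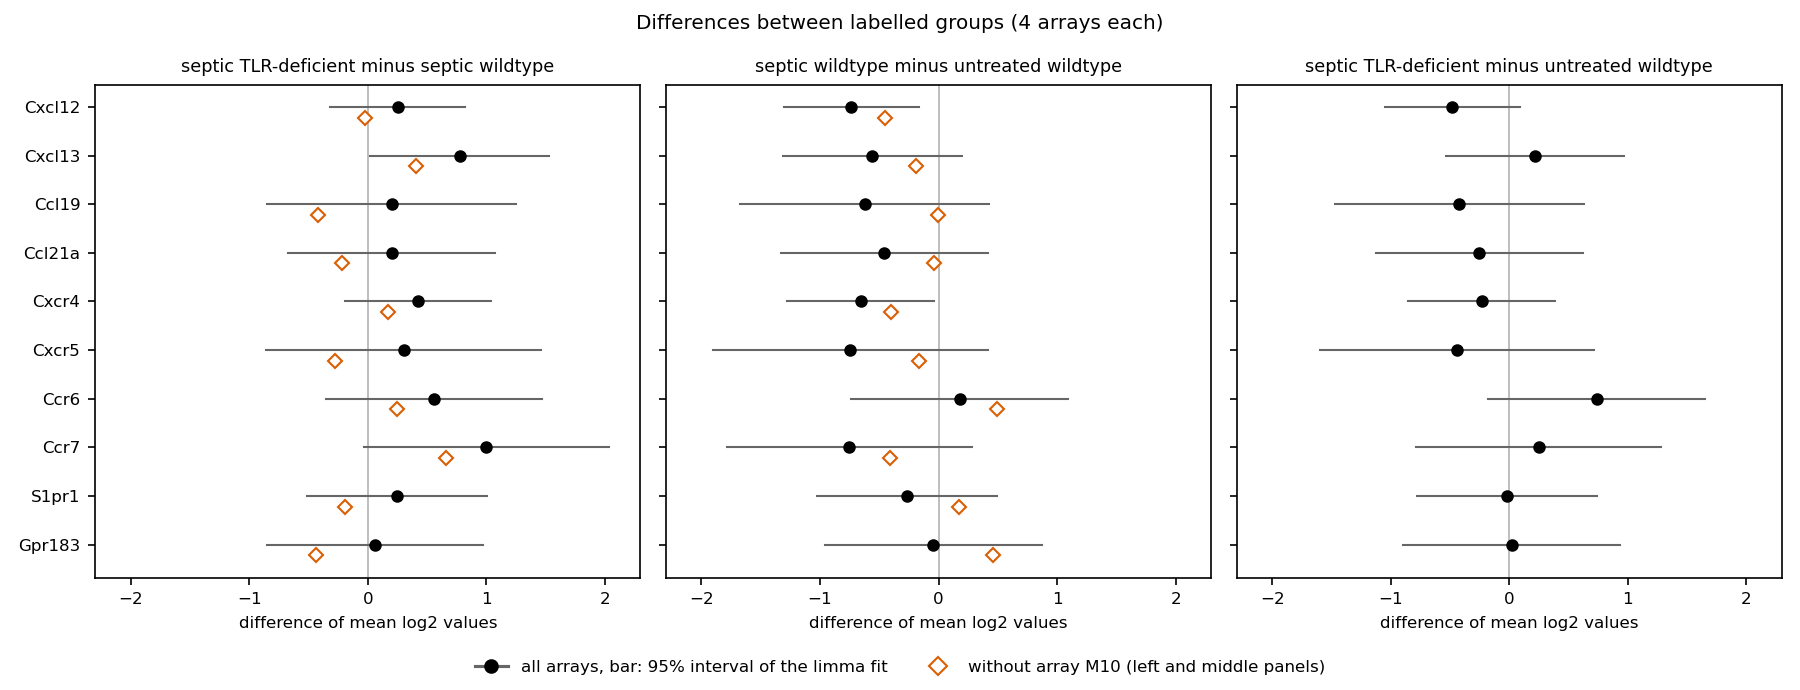
Difference of mean log2 values (horizontal axis) for the 10 genes in the 3 comparisons, 4 arrays a group, with 95% intervals of the limma fit as bars and open diamonds for the value without M10. In the left panel 10 of 10 filled points lie above 0 but 4 of 10 diamonds do, and in the middle panel Cxcl12 at -0.73 and Cxcr4 at -0.66 have intervals that leave out 0 before adjustment over genes.

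Between septic TLR-deficient and septic wildtype spleens, which bears on what depends on TLR signalling, 10 of 10 members had a higher mean on the TLR-deficient arrays, led by Ccr7 (1.0004), Cxcl13 (0.78), Ccr6 (0.56) and Cxcr4 (0.42). That count was 4 of 10 without M10 and 5 of 10 after a further quantile normalization, and the 4 genes just named stayed higher in both. Over all genes 43.9% had a higher mean there. The median difference was 0.28 over the members and -0.06 over all genes, and the median size of a difference was the same for both, 0.28. These medians include M10, and without it the members' differences ran from -0.44 (Gpr183) to 0.66 (Ccr7). No member passed an adjusted p of 0.05 in limma, nor did any of the 19939 genes (0%), and the lowest adjusted p was 0.590. At an unadjusted p under 0.05 stood 1 member, Cxcl13, and 6.65% of all genes (1325). That count was 606 and 716 without M5 or M7, and 2071 and 2201 without M11 or M12. Groups did not overlap for 1 member, again Cxcl13, and for 3.8% of all genes (2.05% in that direction), so the members' share is near the background.

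Between septic and untreated wildtype spleens, sex-linked RNA differed in part, with Xist high on M9 to M11 and low on M13 to M15. As labelled, this comparison bears on the response to peritonitis, and 9 of 10 members had a lower mean on the septic arrays. Ccr7 (-0.75), Cxcr5 (-0.74), Cxcl12 (-0.73) and Cxcr4 (-0.66) had the largest differences, and Ccr6 (0.18) was the exception. Without M10 the higher members were 3, with S1pr1 (0.17) and Gpr183 (0.46) joining Ccr6 (0.49), and the same 3 were higher after quantile normalization. Of all genes 55.1% had a higher mean on the septic arrays, and the median difference was 0.07 over all genes against -0.59 over the members. Both medians include M10, and without it the members' differences ran from -0.46 (Cxcl12) to 0.49 (Ccr6). Limma called 0 members and 0% of genes (lowest adjusted p 0.439). At an unadjusted p under 0.05 stood 2 members, Cxcl12 and Cxcr4, and 8.81% of genes (1756). That count was 1086 without M10, 848, 793 and 858 without M14, M15 or M16, and 3038 and 3193 without M11 or M12. Cxcl12 was the 1 member whose groups did not overlap, as for 6.42% of all genes (2.74% lower on septic arrays). Pancreatic acinar markers, whose mean level was 4.96 to 5.79 on M9 to M11, 9.45 on M12 and 4.73 to 10.32 on untreated arrays, moved within both groups, and their part was not tested.

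Septic TLR-deficient and untreated wildtype spleens differ in genotype and operation together, and Xist was high on M5 to M8 but low on M13 to M15. Genotype, operation and sex cannot be told apart here. Of the members 4 had a higher mean on the TLR-deficient arrays (Ccr6 0.74, Ccr7 0.25, Cxcl13 0.22 and Gpr183 0.02) and 6 a lower one, led by Cxcl12 (-0.48) and Cxcr5 (-0.44), against 51.9% of all genes higher. S1pr1 at -0.02 changed sign with the scaling. The median difference was -0.13 over the members and 0.01 over all genes. Limma called 0 members and 0% of genes (lowest adjusted p 1), and 0 members stood at an unadjusted p under 0.05, as did 1.88% of genes (375). That count was 146 and 193 without M7 or M15, 576 and 723 without M8 or M16, and 1225 without M10, which enters only through the shared estimate of spread. Cxcl12 was again the 1 member with groups apart, as for 3.4% of genes (0.998% lower on the TLR-deficient arrays). Each group serves 2 of the 3 comparisons, so their values are not independent of each other.

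Title blocks gave a second view of the same values. They are no groups of the labels and were drawn with results of these data in view, so ranges are given without a test. In the block M5 to M7 with M16, which joins 3 septic TLR-deficient arrays with an untreated one, Cxcl13 was 11.15 to 11.79 and Ccr7 9.39 to 10.83, above the remaining 8 arrays, which reached 11.13 and 9.17. Of all genes 1.72% lay wholly above in that block. In M8 to M11 no member stood wholly apart, but without M10 Gpr183 lay at 8.18 to 8.43 there, against at most 7.87 elsewhere (3.32% of genes lay wholly above in the same way). In M12 to M15, without M10, Ccr6 lay at 5.76 to 6.15, below the 6.54 or more of the others, as did 1.03% of genes. For the other 6 members no block stood wholly apart from all remaining arrays, with or without M10. Pairs of blocks could still lie apart. Ccl19, for instance, was 9.59 to 10.21 on M5 to M7 with M16 and 10.44 to 10.75 on M12 to M15.

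**Figure D3:**
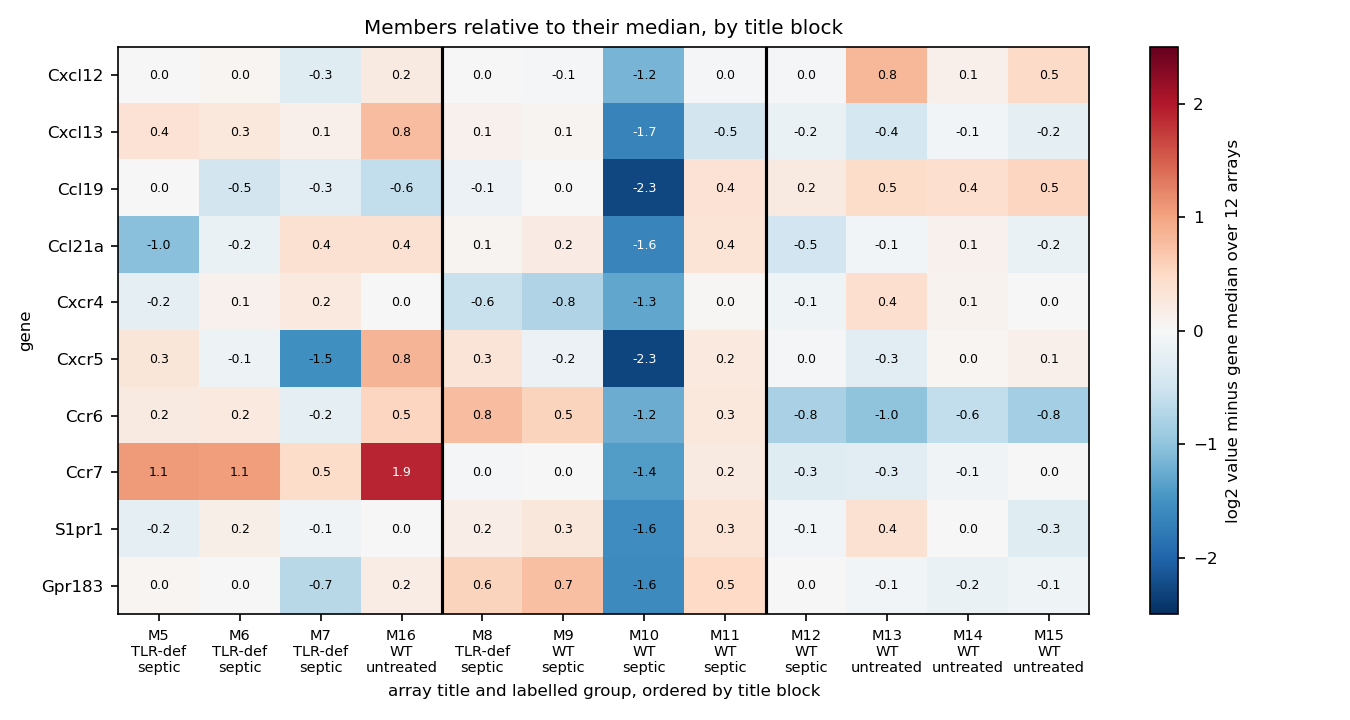
Log2 value minus the gene's median over 12 arrays (colour and printed number) for the 10 genes, arrays ordered by title block with their labels under each column. Ccr7 and Cxcl13 are above their medians on M5, M6, M7 and M16, Gpr183 on M8, M9 and M11, Ccr6 is below its median on M12 to M15, and M10 is below in each of the 10 genes.

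For each member the gene most like it over the 12 arrays was found by Spearman's rank correlation, as a description with no test among 19939 candidates. These were Zhx2 for Cxcl12 (0.937), Rlim for Cxcl13 (0.965), Agap1 for Ccl19 (0.986) and Txnip for the Ccl21 copies (0.951). For the receptors they were Igf1r for Cxcr4 (0.930), Rap2c for Cxcr5 (0.944), Crbn for Ccr6 (0.979), Prkch for Ccr7 (0.965) and Aldh3a2 for Gpr183 (0.902), and for S1pr1 Fam98c, Slc17a5 and Tmem223 tied at 0.888. Without M10 the same gene led alone again for Cxcl13, Ccl19, the Ccl21 copies and Ccr6, and Xist came next for Ccr6 (0.946 over 11 arrays). No member was among the 3 genes most like another member. The arrays share M10 and the title blocks, which enter every such value.

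A list of 11 genes, all measured, held enzymes, transporters and other ligands that set the ligands of these receptors. It mixes genes that make a ligand with genes that remove one, so its counts do not measure ligand supply. On septic TLR-deficient against septic wildtype arrays 9 had a higher mean and 2 a lower one, 0 passed an adjusted p of 0.05 in limma, 3 stood at an unadjusted p under 0.05 (6.65% of all genes did), and the median difference was 0.45. Without M10, 5 of the 11 were higher and the median was -0.0062. The 3 became 1 without M9. Sphk1, which makes the S1pr1 ligand sphingosine 1-phosphate, stood at 7.90, 8.11, 7.99 and 6.50 on the septic TLR-deficient arrays, 5.87, 6.16, 6.13 and 6.10 on the septic wildtype arrays, and 6.41, 6.21, 6.26 and 8.36 on the untreated arrays. The septic groups did not overlap (difference 1.56, SE 0.46, adjusted p = 0.590 in limma; 1.59 without M10), as for 3.8% of all genes (2.05% in that direction). M5, M6, M7 and M16 held the 4 highest values of Sphk1, and 1.72% of all genes lay wholly above in that block. Ch25h, the hydroxylase that starts the oxysterol ligand of Gpr183, stood at 7.26, 6.59, 6.08 and 5.20, at 5.21, 5.12, 5.24 and 5.61, and at 6.16, 6.08, 6.14 and 7.48 in the same groups. Its 4 values on M8 to M11 were the lowest of the 12, the arrays on which, M10 aside, Gpr183 was highest. Septic wildtype minus untreated was -1.17 for Ch25h (SE 0.40, adjusted p = 0.439 in limma; -1.11 without M10). Of the list 10 of 11 genes were lower there, with a median of -0.46, and 9 of 11 without M10, with a median of -0.16. Against untreated arrays, septic TLR-deficient ones had 3 genes higher and 8 lower, with a median of -0.09, but 6 higher and a median of 0.04 without M16.

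A list of atypical chemokine receptors, together with other receptors for the same ligands, gave no common direction. Between the septic groups 3 of 9 were higher, with a median of -0.14 (-0.16 without M10, but 5 higher and 0.01 without M11). Ccrl2, which binds Ccl19 and chemerin without signalling, stood at 8.30, 9.10, 7.87 and 6.07 on the septic TLR-deficient arrays, 5.60, 5.94, 6.04 and 7.58 on the septic wildtype arrays, and 7.16, 7.54, 7.89 and 9.34 on the untreated arrays. As for Ch25h, M8 to M11 were the 4 lowest. Septic TLR-deficient minus septic wildtype was 1.54 (SE 0.63, adjusted p = 0.590 in limma; 1.42 without M10). Septic wildtype minus untreated gave 5 of 9 higher with a median of 0.11, but 4 with a median of -0.0046 without M10. Septic TLR-deficient minus untreated gave 3 of 9 with a median of -0.05, but 5 with 0.02 without M14.

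Of 14 measured genes that restrain or transmit receptor signals, 8 had a higher mean on septic TLR-deficient than on septic wildtype arrays (median 0.19), 4 on septic wildtype than on untreated arrays (median -0.40) and 1 on septic TLR-deficient than on untreated arrays (median -0.28), with 0 called in limma each time and 1, 2 and 0 at an unadjusted p under 0.05, where all genes had 6.65%, 8.81% and 1.88%. Without M10 the first direction turned, with 4 of 14 higher and a median of -0.25, and septic wildtype minus untreated had 6 of 14 higher and a median of -0.04, with 0 at an unadjusted p under 0.05 in both. Without M7, M8 or M16, 4, 4 and 5 were higher on septic TLR-deficient than on untreated arrays. Rgs1, which shortens chemokine receptor signals in B cells, stood at 8.11, 8.64, 8.999 and 6.09 on the septic TLR-deficient arrays, 5.60, 4.66, 6.24 and 8.06 on the septic wildtype arrays, and 7.77, 7.63, 7.44 and 9.28 on the untreated arrays. It was highest on M5 to M7 with M16 and lowest on M8 to M11, and the septic TLR-deficient label holds arrays of both kinds. Cd69, which removes S1pr1 from the surface of lymphocytes, stood at 9.74, 9.77, 8.53 and 7.66, at 7.29, 4.90, 7.40 and 9.35, and at 7.95, 8.79, 9.25 and 10.14 in the same groups. M8 to M11 were again the 4 lowest. S1pr1 RNA itself was 9.75, 9.88 and 9.94 on M8, M9 and M11, among its higher values. On M10, where Cd69 was lowest, S1pr1 was lowest too (8.03), and its highest value was on M13 (9.97). Further list genes, such as Icam1, Pdgfra and Myd88, were also wholly lowest on M8 to M11, and the share of all genes is not given here.

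**Figure D4:**
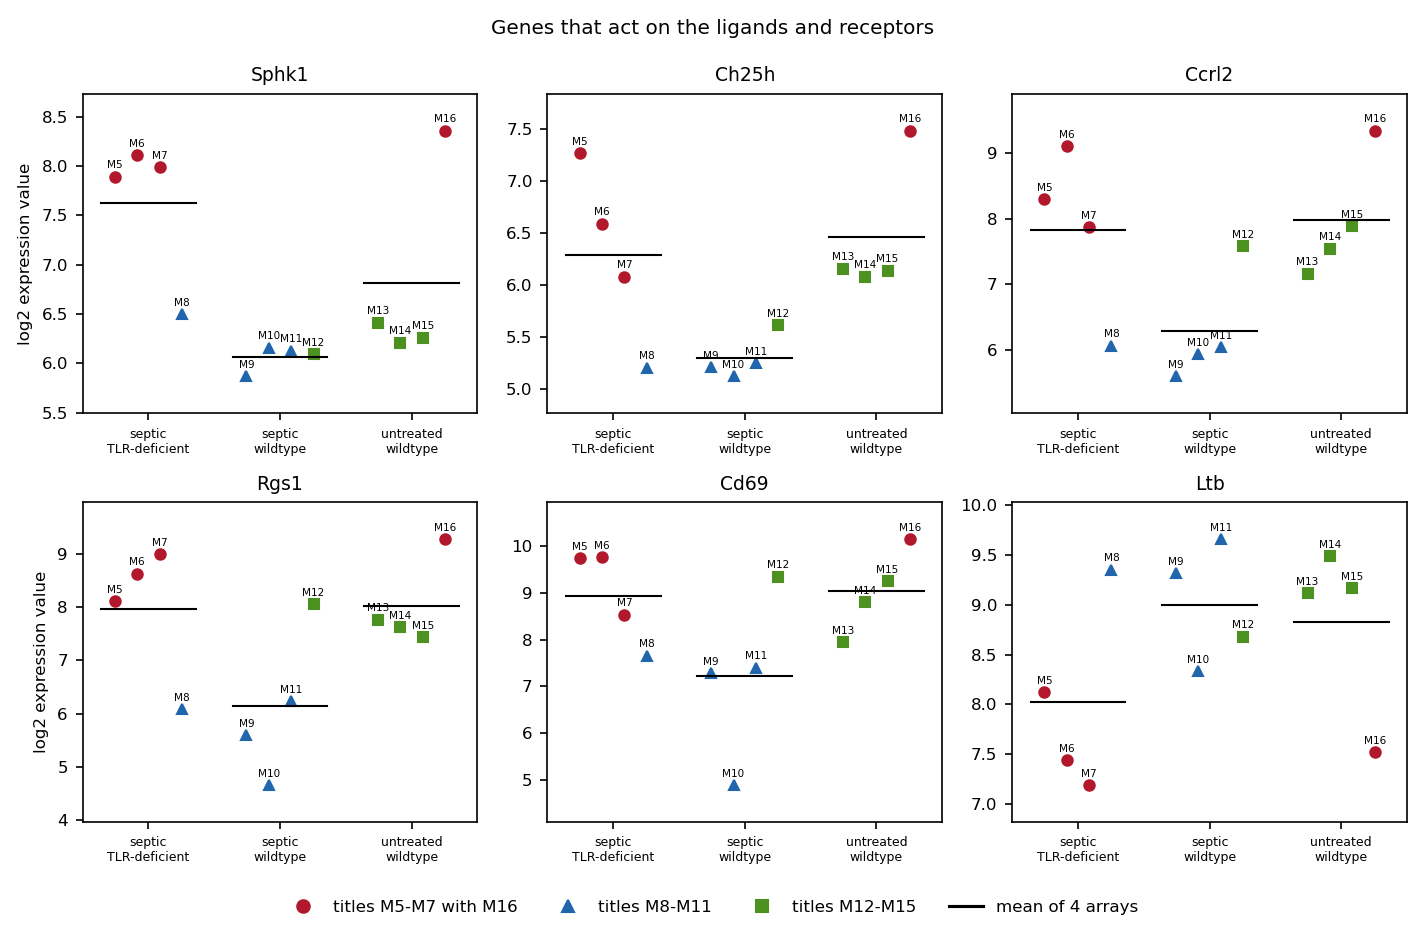
Log2 expression value (vertical axes, each with its own range) of 6 genes that act on these ligands and receptors, on 12 arrays in the 3 labelled groups, with symbols for title blocks and a line at the mean of 4 arrays. Sphk1 and Rgs1 are highest on M5, M6, M7 and M16, Ch25h, Ccrl2, Rgs1 and Cd69 lowest on M8 to M11, and Ltb lowest on M5, M6, M7 and M16 at 7.19 to 8.12.

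Lymphotoxin, which B cells make to keep stroma producing Cxcl13, Ccl19 and Ccl21, belongs to a list of 13 genes of stromal upkeep, all measured. Between the septic groups 10 were higher on TLR-deficient arrays (median 0.30), between septic and untreated wildtype arrays 3 were higher (median -0.53), and between septic TLR-deficient and untreated arrays 1 was (median -0.22), with 0 called in limma and 0, 5 and 1 at an unadjusted p under 0.05, against 6.65%, 8.81% and 1.88% of all genes. Without M10, 9 were higher in the first (median 0.10) and 2 in the second (median -0.34), with 0 and 3 at an unadjusted p under 0.05, and that 5 was also 3 without M9, M14 or M15. In the third, 3 and 4 were higher without M7 or M8. Both lymphotoxin subunits were set beside Cxcl13. Ltb stood at 8.12, 7.44, 7.19 and 9.35 on the septic TLR-deficient arrays, 9.32, 8.33, 9.66 and 8.68 on the septic wildtype arrays, and 9.11, 9.49, 9.17 and 7.52 on the untreated arrays. Lta stood at 4.58, 4.82, 4.37 and 4.96, at 4.99, 5.73, 5.31 and 5.14, and at 5.46, 5.83, 6.13 and 4.50. Both had their 4 lowest values on M5 to M7 with M16, where Cxcl13 had its 4 highest. Lta on M8 (4.96) was close above that on M6 (4.82), and Lta lay below the array's median on M5 to M9, M12 and M16. On the remaining arrays Ltb did not run against Cxcl13. M10 had the lowest of both there (Ltb 8.33, Cxcl13 9.35), and M8 and M9, with the highest Cxcl13 (11.13 and 11.09), had Ltb at 9.35 and 9.32. Other list genes were also wholly lowest there, such as the B cell marker Fcer2a and the dendritic cell marker Clec9a. The share of all genes that did so is not given here. Tnfrsf1a, a receptor for tumour necrosis factor and lymphotoxin, averaged 8.24 ± 0.66 on septic wildtype and 9.26 ± 0.25 on untreated arrays (SD, n = 4 each), which gave a log2 difference of -1.03 (SE 0.31, adjusted p = 0.439 in limma; -0.73 without M10). Among 7 measured adhesion genes of lymphocyte entry, 4 were higher between the septic groups (median 0.31), 1 between septic and untreated wildtype (median -0.53) and 2 between septic TLR-deficient and untreated arrays (median -0.26). Without M10 the first was 2 of 7 with a median of -0.13, and the second 3 of 7 with a median of -0.05. The third was 0 of 7 without M8, and its median was -0.49 without M5.

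Marker lists of the cells that carry these receptors or make these ligands differed by title block too. The mean log2 level of 9 B cell markers was 8.45, 8.37, 8.16 and 10.03 on the septic TLR-deficient arrays, 10.15, 8.16, 9.83 and 9.40 on the septic wildtype arrays, and 9.54, 9.77, 9.55 and 8.29 on the untreated arrays. It was below 8.5 on M5 to M7, M16 and M10, while the B cell receptors did not follow it on each of these arrays. Cxcr5 had its highest value on M16 (8.91) and, M10 aside, its lowest on M7 (6.54), and Ccr6 stood at 6.54 to 7.31 on M5 to M7 and M16, above M12 to M15. The 8 T cell markers averaged 7.47 to 8.40, 7.02 to 8.52 and 7.49 to 8.49 in these groups, and on M5 to M7 with M16, where Ccr7 was highest, their mean was 7.47 to 7.62 against 7.74 to 8.52 on the remaining arrays apart from M10. The 8 dendritic cell markers averaged 5.20 to 5.29 on M5 to M7 with M16 and 5.89 to 7.10 elsewhere. With all 12 arrays each list had both higher and lower members in each comparison and 0 called in limma. Without M10, 0 of 9 B cell and 0 of 8 dendritic cell markers were higher on septic TLR-deficient than on septic wildtype arrays, and 9 of 9 B cell markers were higher on septic wildtype than on untreated arrays, with 0 called in limma. The 10 stromal markers averaged 6.93 to 7.30 on septic TLR-deficient, 6.63 to 7.57 on septic wildtype and 7.35 to 7.65 on untreated arrays, with 8 of 10 lower in either septic group than in untreated mice (medians -0.19 for septic wildtype and -0.41 for septic TLR-deficient), as Cxcl12 was. Without M10 the septic wildtype count was 5 of 10 lower, with a median of -0.055, it was 6 of 10 without M14 or M15, and the septic TLR-deficient median was -0.22 without M15. The part of these cell types in the chemokine and receptor values was not tested.

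**Figure D5:**
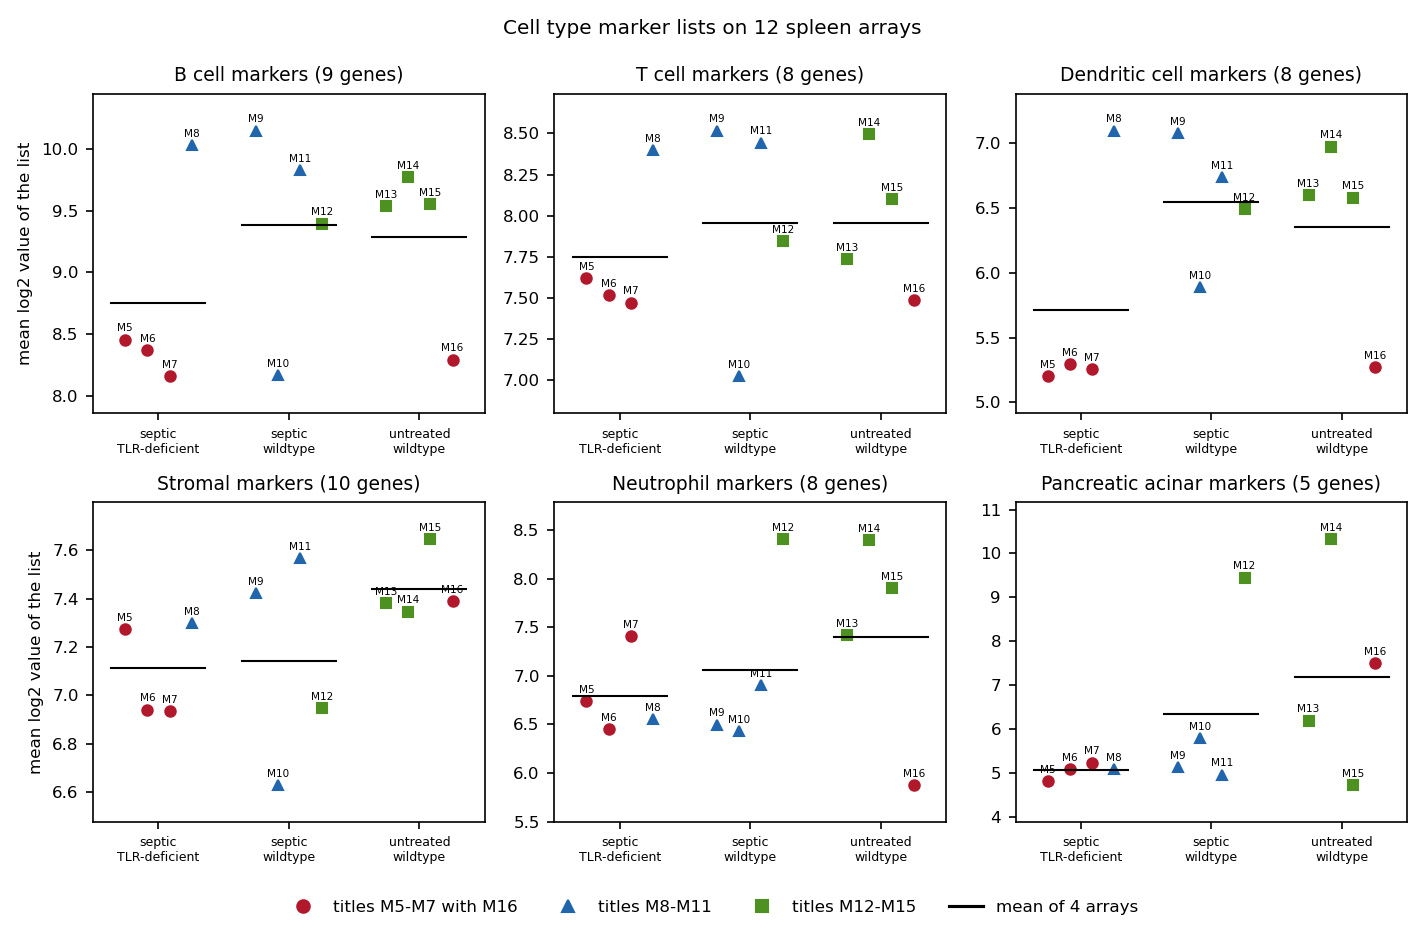
Mean log2 value of 6 lists of cell type markers (vertical axes, each with its own range) on 12 arrays in the 3 labelled groups, with symbols for title blocks and a line at the mean of 4 arrays. B cell and dendritic cell markers are low on M5, M6, M7 and M16, dendritic cell markers there at 5.20 to 5.29, and acinar markers are high on M12 (9.45) and M14 (10.32).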

How the data were processed

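Total RNA from mouse spleen was amplified and labelled with biotin using Affymetrix kits, per the labels' protocols. The labels' extraction text also mentions mutants of an unrelated gene, which was not used. The deposited table holds log2 values per probe set, made by RMA in Affymetrix Expression Console per the submitters' processing notes, which give no versions. RMA commonly makes array distributions alike, but the SD over probe sets was 1.52 on M10 and 2.11 to 2.24 on the other arrays. All 12 columns matched a sample. The platform annotation gives 1 symbol to 21789 of 35557 probe sets, several to 1621 and none to 12147.

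Each gene was read from its brightest probe set with 1 symbol; Ccl21a, found only on probe sets with several, was added, which gave 19939 genes and no filter on dim ones. Limma 3.58.1 in R 4.3.3 fitted 1 mean per labelled group over 12 arrays, two-sided, with p-values adjusted by Benjamini-Hochberg across the genes and a threshold of 0.05. Differences are the first group named minus the second. The procedure was tested on simulated data. Figures used matplotlib 3.10.9 in Python 3.11.15.

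The members, title blocks and 16 gene lists (124 of 137 genes measured) were chosen with earlier results of these data known. Named beside the members were the genes most like each of them, at most the 2 genes with the largest differences per list and comparison, and Myd88, Ticam1, Xist and Eif2s3y. Cell type lists, beside those reported, covered red pulp macrophages, neutrophils, erythroid cells, acinar cells and adipocytes. Lta was named by the rule together with Ltb. Alternatives were a further quantile normalization, centring, leaving out genes under percentile 25 of mean level, averaging the probe sets of a gene, only the arrays compared, trended and robust variances, array weights, a replicate block, a threshold of 0.01 and leaving out each array in turn. Replicates 1 to 3 only, with and without M10, a covariate of Y-linked genes, and gene lists with each array left out were added after seeing the data. The labels call the arrays biological replicates, and their number limits the precision.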

Additional observations from a re-analysis of the deposited data

Results flagged for a closer look

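In each labelled group of 4, an array was looked for that stood far from the other 3, for the 10 members and for the mean levels of 14 gene lists. Of 72 groups 16 held such an array. Chance gives about 1 in 20 for a single group. Genes and lists share the same 12 arrays, so 1 odd array can be flagged many times and this rate does not gauge the count. Causes were not tested.

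For the members there were 6. Cxcl12 stood at 9.35 on M7, below the 9.64 of the next septic TLR-deficient array, and at 8.51 on M10, against 9.61 or more on the other septic wildtype arrays. Ccl19 stood at 7.94 on M10, against 10.21 or more in its group, and at 9.59 on M16, against 10.63 or more on the other untreated arrays. Cxcr5 stood at 5.78 on M10, against 7.91 or more. Ccr7 was 10.83 on M16, against at most 8.94 on the other untreated arrays.

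Among the lists, M10 was lowest of the septic wildtype arrays for ligand supply genes (6.00), genes of receptor control (6.60) and adhesion genes (7.63). M7 was lowest of the septic TLR-deficient arrays for receptor control genes (7.84). M8 was highest in that group for B cell markers (10.03), T cell markers (8.40) and dendritic cell markers (7.10). M16 was lowest of the untreated arrays for B cell markers (8.29) and erythroid markers (7.28), and M15 was highest there for stromal markers (7.65).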

How the results depend on the processing

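Values are log2 differences, and T−S, S−U and T−U stand for septic TLR-deficient minus septic wildtype, septic wildtype minus untreated and septic TLR-deficient minus untreated. Leaving out genes under percentile 25 of mean level, averaging the probe sets of a gene, only the arrays compared, trended and robust variances and a threshold of 0.01 turned no member and called 0 genes. Centring arrays turned only S1pr1 T−U (0.0098). The cause of the changes below was not tested.

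Quantile normalization turned Cxcl12 (-0.10), Ccl19 (-0.15), Ccl21a (-0.14), S1pr1 (-0.11) and Gpr183 (-0.12) in T−S, S1pr1 (0.19) and Gpr183 (0.22) in S−U and S1pr1 (0.079) in T−U, which left 5 and 3 members higher in T−S and S−U. Array weights, which give M10 less say, called 1 gene in S−U, left 4 members higher in T−S and 5 in S−U, and turned Cxcl12 (-0.0062), Ccl19 (-0.34), Ccl21a (-0.37), Cxcr5 (-0.17), S1pr1 (-0.24) and Gpr183 (-0.55) in T−S, Cxcl13 (0.0022), Ccl21a (0.15), S1pr1 (0.33) and Gpr183 (0.63) in S−U and S1pr1 (0.088) in T−U.

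Replicates 1 to 3 only, chosen after seeing the data and leaving out arrays unlike their label, called 141, 9 and 33 genes in T−S, S−U and T−U and 0 members. They left 2 members higher in S−U and turned Gpr183 in each (-0.10, 0.0057 and -0.10). Also without M10, 1002, 19 and 675 of 19939 genes were called, members among them only in T−U: Ccl19 (-0.72, adjusted p = 0.0410 in limma), Ccr6 (0.91, adjusted p = 0.0252) and Ccr7 (0.98, adjusted p = 0.0246). Such calls do not test the labels, because arrays unlike their label were left out. In T−U this choice sets M5 to M7 against M13 to M15, which also differ in Xist and title block. Members higher were then 3 in T−S and 7 in S−U. Turned were Cxcl12 (-0.059), Ccl19 (-0.43), Ccl21a (-0.55), Cxcr5 (-0.49), Ccr6 (-0.33), S1pr1 (-0.37) and Gpr183 (-0.84) in T−S, Cxcl13 (0.054), Ccl21a (0.32), Cxcr5 (0.082), Ccr7 (0.23), S1pr1 (0.29) and Gpr183 (0.74) in S−U and Gpr183 (-0.10) in T−U. The covariate of Y-linked genes left 0 members higher in S−U and 1 in T−U, and turned Gpr183 in T−S (-0.057), Ccr6 in S−U (-0.36), and Cxcl13 (-0.13), Ccl19 (0.055), Ccr6 (-0.18), Ccr7 (-0.63) and Gpr183 (-0.27) in T−U. Within a label this covariate mainly sets M12 and M16 apart, whose labels could not be settled.

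Leaving out each array in turn called 0 genes, with 606 to 2201, 793 to 3193 and 146 to 1225 at an unadjusted p under 0.05, and left 4 to 10, 0 to 3 and 3 to 5 members higher in T−S, S−U and T−U. Differences that changed sign ranged in T−S from -0.0265 to 0.35 for Cxcl12, -0.42 to 0.46 for Ccl19, -0.21 to 0.49 for Ccl21a, -0.27 to 0.72 for Cxcr5, -0.19 to 0.45 for S1pr1 and -0.44 to 0.34 for Gpr183. They ranged in S−U from -0.11 to 0.52 for Ccr6, -0.47 to 0.17 for S1pr1 and -0.32 to 0.46 for Gpr183, and in T−U from -0.45 to 0.028 for Ccl21a, -0.13 to 0.10 for S1pr1 and -0.17 to 0.24 for Gpr183. Gene list medians without M10, added after seeing the data, turned in T−S for ligand supply (-0.0062), receptor control (-0.25) and adhesion genes (-0.13) and in S−U for the other receptors (-0.0046).

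The labels number replicates alike in the groups, and correlations of deviations between same-numbered arrays ran from -0.54 to 0.14. They gave no sign of a pairing but cannot exclude one, because arrays unlike their label enter these deviations. With the replicate block 0 genes were called in each comparison, 1006, 1338 and 308 stood at an unadjusted p under 0.05, and no member changed sign.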

Other observations

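Lists of other cells in the spleen gave values not used above. Of 5 measured erythroid genes, 5 had a higher mean on septic TLR-deficient than on septic wildtype arrays (median log2 difference 0.60) and 5 than on untreated arrays (median 0.95), while 4 were higher on septic wildtype than on untreated arrays (median 0.52, or 0.10 with 3 higher without M10). Between the septic groups the count was 3 and the median 0.23 without M9. Alas2, the first enzyme of haem synthesis in red cell precursors, stood at 10.19, 10.41, 10.71 and 10.82 on the septic TLR-deficient arrays, 9.57, 10.30, 9.81 and 10.02 on the septic wildtype arrays, and 8.93, 10.03, 9.89 and 8.45 on the untreated arrays. The septic TLR-deficient arrays were all above the untreated ones (difference 1.20, SE 0.33, adjusted p = 1 in limma). These groups did not overlap, in either direction, for 3.4% of all genes. Of 8 neutrophil genes 2, 2 and 4 were higher in the comparisons of septic TLR-deficient with septic wildtype, septic wildtype with untreated and septic TLR-deficient with untreated arrays (medians -0.13, -0.56 and -0.71); the first turned to 0.04 and 0.02 without M6 or M8, and the second was -0.19 without M10. Red pulp macrophage genes had 4, 4 and 3 of 7 higher (medians 0.30, 0.11 and -0.16), adipocyte genes 1, 3 and 4 of 4 (medians -0.28, 0.63 and 0.27) and acinar genes 0 of 5 each time (medians -1.36, -0.98 and -2.53). Without M10 the median between the septic groups was -0.30 for macrophage and -0.0079 for adipocyte genes. The macrophage medians also changed sign without M11, M13 or M16 between septic and untreated wildtype (-0.03, -0.009 and -0.22) and without M7 or M14 between septic TLR-deficient and untreated arrays (0.02 both times). The adipocyte median was 0.26 between septic and untreated wildtype without M10, and 0.05 between septic TLR-deficient and untreated arrays without M5. Acinar genes had medians of -0.22 between the septic groups without M12 and 0.14 between septic and untreated wildtype without M14. Adgre1, a marker of red pulp macrophages, was 5.46 to 6.02 on M12 to M15 and 6.92 to 9.20 on the other arrays, the same split as Xist and, M10 aside, Ccr6. Without M10, 1.03% of all genes lay wholly below on M12 to M15. No other gene of the macrophage list was wholly lowest there, and Cd163 was at 7.09 to 8.52, with its highest value on M13. No gene of these lists passed an adjusted p of 0.05 in limma.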
